A study of Mus musculus with 6 samples.

Results

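Fibroblast identity markers are the genes by which fibroblasts are recognised and sorted into subsets. The 10 genes described here are Pdgfra, Pdgfrb, Thy1, Pdpn, Fap, Dpp4, Dpt, Pi16, Cd34 and S100a4. They were chosen by name from the 34745 genes of the deposited table. Of the 10, 8 encode proteins carried on the cell surface or anchored in its membrane, whereas Dpt encodes a secreted matrix protein and S100a4 a cytoplasmic one, so the set is wider than surface markers alone. RNA was sequenced from primary renal fibroblasts of wild-type (WT) mice, grown out of kidneys digested with trypsin and collagenase. In 3 libraries the fibroblasts had been cultured alone (lone fibroblasts), and in 3 they had been kept for 24 hours under a transwell insert that held Th17 cells (cocultured fibroblasts). The Th17 cells were induced from CD4+ T cells, the insert kept them apart from the fibroblasts, and the fibroblasts of the lower chamber were collected. The study's methods name Balb/c as the mouse strain they used, without naming the strain again for the fibroblasts. Age and sex of the mice, the number of passages, and whether replicate libraries came from different animals or wells are not given in the sources used here. Errors and p-values therefore measure only how far these libraries scatter, which may be technical.

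Fibroblasts have no single defining gene, and each of these markers is shared with other cells. Platelet-derived growth factor (PDGF) receptors alpha and beta mark mesenchymal cells and carry the growth and migration signals that drive kidney fibroblasts and pericytes. In atlases of mouse tissues, Pi16, Dpp4, Cd34 and Dpt mark a fibroblast population of the vessel adventitia that is regarded as a reserve for more specialised fibroblasts, whereas Fap, S100a4, Pdpn and Thy1 have been used for activated fibroblasts.

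Total counts per library ranged from 12050529 to 13209581, so depth was similar in all 6. Counts are given as CPM, scaled to a common library total by TMM, edgeR's normalisation factor, and a floor of 3 counts equalled 0.223 to 0.254 CPM. Levels of different genes are compared only as FPKM, fragments scaled to gene length and library total, which the authors deposited. A gene is called higher or lower at an edgeR quasi-likelihood p below 0.05 after Benjamini-Hochberg adjustment over all 13088 genes tested, and is past the study's threshold when its fold change is also above 2. Intervals and floors from counts cover counting error only.

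Of the 10 markers, 9 had enough counts to be tested. In cocultured fibroblasts 5 of the 9 were lower, namely Pdgfra, Pdgfrb, Thy1, Fap and Dpp4, against 20.0% of all genes tested. Pdpn was the single marker called higher, where 17.1% of all genes were. The same shares apply to the counts of every gene list below. Dpp4 alone was past the study's threshold, which 11.6% of all genes passed in either direction and 7.78% in the lower direction. Cd34, Pi16 and S100a4 were not called, and Dpt was too low to be tested by the filter. For 7 of the 9 tested markers every library of one group lay above every library of the other, and this held for 50.4% of all genes tested. The median log2 fold change of the tested markers was −0.34, and that of all genes tested was 0.00. In bulk RNA such as this, fewer cells of a type and less RNA per cell cannot be told apart.

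**Figure D1:**
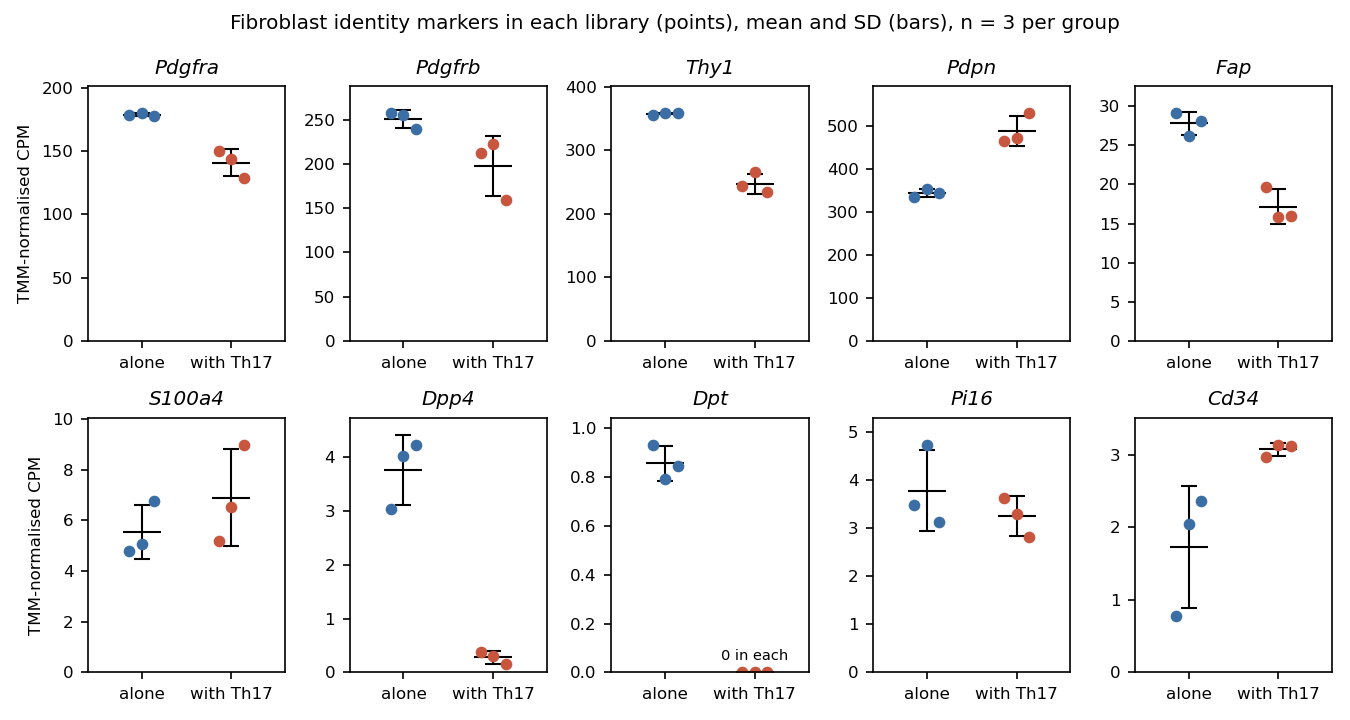
TMM-scaled CPM of each of the 10 markers in the 3 lone and the 3 cocultured libraries, on linear axes from 0; points are libraries, and bars are the group mean and SD. Dpp4 fell from 3.03 to 4.23 CPM in the lone libraries to 0.152 to 0.372 CPM in the cocultured ones, Dpt was at 0 in all 3 cocultured libraries, and Pdpn was higher in all 3.

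Lone fibroblasts carried the broad mesenchymal markers at high levels and the adventitial ones at low levels. By FPKM the order was Thy1 at 201 ± 1.17 (SD, n = 3), Pdpn at 155 ± 4.28, Pdgfrb at 31.9 ± 1.15 and Pdgfra at 11.7 ± 0.0616. S100a4 followed at 6.50 ± 1.27 FPKM and Fap at 3.90 ± 0.204 FPKM, around the median of 4.25 FPKM over all genes tested. Dpp4, Pi16 and Dpt, at 0.513 ± 0.0891, 0.496 ± 0.110 and 0.485 ± 0.0397 FPKM, had overlapping ranges and could not be ranked against each other. Cd34 was the lowest of all at 0.172 ± 0.0843 FPKM. The label of these cells is thus matched by Thy1, Pdpn and both PDGF receptors. Pericyte and smooth muscle markers summed to 2368 to 2499 CPM in the lone libraries. Des (mean 1313 CPM), Cnn1 (578 CPM) and Myh11 (371 CPM) contributed most to that sum. In contrast, Rgs5, Kcnj8 and Abcc9 averaged 1.82, 0.192 and 0.183 CPM, and Higd1b was at 0. The match of the label does not by itself separate fibroblasts from pericytes or smooth muscle cells. The markers of the adventitial population were near the lower end of the genes tested.

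With Th17 cells the head of the order was exchanged. Pdpn stood first at 230 ± 17.9 FPKM (SD, n = 3), with libraries between 219 and 251, and Thy1 second at 146 ± 8.22 FPKM, with libraries between 139 and 155. In lone fibroblasts Thy1 had lain between 200 and 203 FPKM and Pdpn between 150 and 159, so the ranges were apart in both groups. This exchange was noticed after the values were seen. Pdgfrb at 26.2 ± 4.32 FPKM kept the third place, and Pdgfra at 9.62 ± 0.677 and S100a4 at 8.46 ± 2.39 FPKM were not separated. Fap lay at 2.52 ± 0.322 FPKM. Below it stood Pi16 at 0.445 ± 0.0557, Cd34 at 0.320 ± 0.00934 and Dpp4 at 0.0398 ± 0.0161 FPKM, in ranges that did not overlap.

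**Figure D2:**
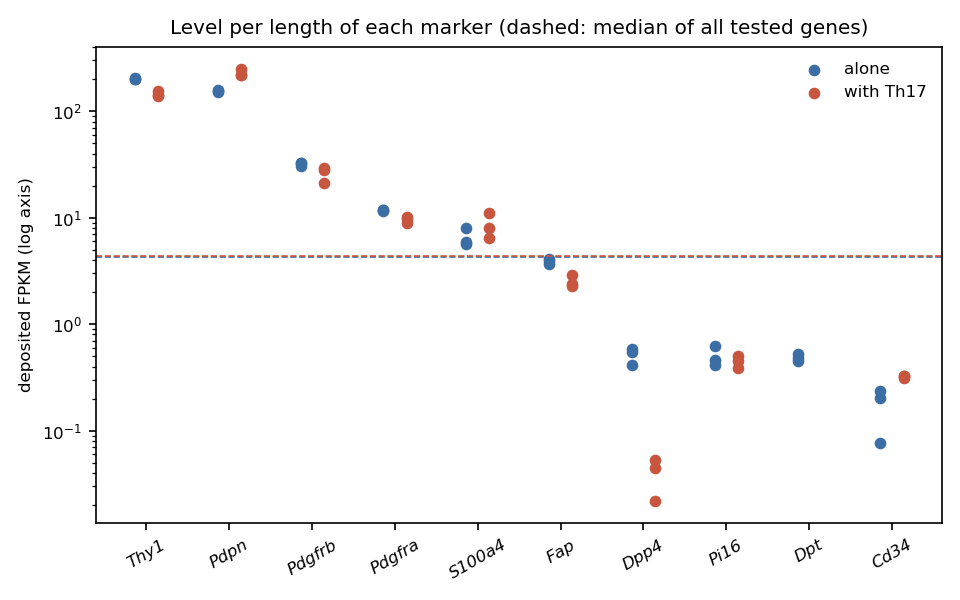
Deposited FPKM of the 10 markers in lone and cocultured fibroblasts on a log axis, with 1 point per library and dashed lines at the median of all genes tested; Dpt, at 0 in coculture, has no point there. Thy1 and Pdpn lie above the others in both groups, and Pdpn at 230 FPKM exceeds Thy1 at 146 FPKM only in the cocultured libraries.

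Both PDGF receptors were modestly lower with Th17 cells. Pdgfra (ENSMUSG00000029231, chromosome 5, 75152292 to 75198215, plus strand) measured 179, 180 and 178 CPM in the lone libraries and 150, 144 and 129 CPM in the cocultured ones. The groups did not overlap, and the lone libraries were nearly equal. Its log2 fold change was −0.35 (SE 0.068, 95% interval −0.48 to −0.21, edgeR adjusted p = 0.00359), a level 1.27-fold lower. Pdgfrb (ENSMUSG00000024620, chromosome 18, 61045150 to 61085061, plus strand) measured 257, 255 and 239 CPM against 212, 222 and 159 CPM. Here too the groups did not overlap, but cocultured replicate 3 lay far under the other cocultured libraries. The log2 fold change of Pdgfrb was −0.34 (SE 0.113, 95% interval −0.56 to −0.12, edgeR adjusted p = 0.0404). That call was lost when any of the 3 lone libraries was left out (adjusted p = 0.0566 to 0.0988), when libraries were scaled by their total alone (−0.28, adjusted p = 0.0711), and with limma on log2(FPKM + 1) (−0.28, adjusted p = 0.0815). Without cocultured replicate 3 the fold change of Pdgfrb was −0.21 (edgeR adjusted p = 0.0236).

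No difference was detectable in the proportion of the receptors to each other. On the log2(FPKM + 0.1) scale the ratio of Pdgfra to Pdgfrb was −1.47, −1.45 and −1.38 in lone libraries and −1.45, −1.58 and −1.25 in cocultured ones. The ranges overlapped, with means of −1.44 ± 0.048 and −1.43 ± 0.165 (SD, n = 3). The difference of 0.01 gave a two-sided exact permutation p of 0.80, where 0.10 is the smallest that 3 libraries against 3 allow.

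Among genes of the same signalling system, the ligands and coreceptors moved in the lower direction or were not called. Of 8 genes in this list 7 were tested, 4 were lower and 0 higher, with a median of −0.47. Cd248 (endosialin, a surface protein of pericytes and stromal cells) fell from 125 ± 10.9 to 34.1 ± 5.58 CPM (log2 −1.87, SE 0.124, edgeR adjusted p = 3.84e-06). Pdgfc, whose product activates the alpha receptor after it has been cut, fell from 52.9 ± 1.49 to 22.3 ± 0.702 CPM (log2 −1.24, SE 0.076, edgeR adjusted p = 2.42e-06). Pdgfd, a ligand of the beta receptor, fell from 11.3 ± 1.66 to 4.90 ± 1.27 CPM (log2 −1.21, SE 0.207, edgeR adjusted p = 0.00168). Pdgfa was at 45.1 ± 2.72 and 51.7 ± 2.88 CPM (log2 0.20, edgeR adjusted p = 0.0882), and Pdgfb had too few counts to test, with 9, 6 and 5 against 2, 5 and 2. Nrp1 was the other gene called, at log2 −0.47.

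Thy1 and Pdpn, the most abundant markers, moved in opposite directions. Thy1 (CD90, ENSMUSG00000032011, chromosome 9, 44043384 to 44048579, plus strand) encodes a small glycolipid-anchored protein of fibroblasts, T cells and neurons. It measured 356, 358 and 358 CPM in lone and 243, 265 and 234 CPM in cocultured libraries. The lone libraries were within 1.07 CPM SD of their mean of 357, and every cocultured library was under them. Its log2 fold change was −0.53 (SE 0.062, 95% interval −0.65 to −0.41, edgeR adjusted p = 0.000160), a level 1.44-fold lower.

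Pdpn (podoplanin, ENSMUSG00000028583, chromosome 4, 143267431 to 143299564, minus strand) encodes a mucin-type membrane protein of lymphatic endothelium, podocytes and the fibroblasts of lymphoid tissue. It measured 335, 353 and 345 CPM in lone and 465, 473 and 530 CPM in cocultured libraries. Every cocultured library was above every lone one, replicate 3 most. Its log2 fold change was 0.51 (SE 0.066, 95% interval 0.38 to 0.63, edgeR adjusted p = 0.000315), a level 1.42-fold higher. Podoplanin binds CLEC-2, the platelet receptor encoded by Clec1b, and links to the cytoskeleton through ezrin and moesin. Of 8 genes for such partners 7 were tested, 2 were lower and 0 higher, and Clec1b was at 0 in every library. Over all genes tested, 20.0% were lower and 17.1% higher. Lgals8, a galectin, fell from 170 ± 22.0 to 97.2 ± 3.47 CPM (log2 −0.81, edgeR adjusted p = 0.000175), and Ezr fell from 78.6 ± 1.28 to 59.6 ± 5.08 CPM (log2 −0.40, edgeR adjusted p = 0.00349).

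Podoplanin also marks the reticular fibroblasts of lymph nodes, which organise T cell zones. Of 12 genes of lymphoid stroma 7 were tested, 5 were lower and 0 higher, with a median of −1.18. Vcam1, an adhesion molecule for leukocytes, fell from 1007 ± 17.4 to 125 ± 4.46 CPM (log2 −3.01, SE 0.058, edgeR adjusted p = 8.56e-09). Icam1 fell from 28.3 ± 3.57 to 2.05 ± 0.416 CPM (log2 −3.77, SE 0.173, edgeR adjusted p = 3.78e-07). Bst1, an ectoenzyme, changed by log2 −2.03. The chemokines Ccl19 and Ccl21a, which such cells make, and Madcam1 were at 0 in all 6 libraries.

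Fap and Dpp4 are related serine peptidases that cut after proline, and they lie close together on chromosome 2. Fap (ENSMUSG00000000392, 62500943 to 62574075, minus strand) measured 29.1, 26.2 and 28.1 CPM in lone and 19.7 CPM or less in every cocultured library, from 265, 201 and 211 counts. The groups did not overlap. Its log2 fold change was −0.69 (SE 0.114, 95% interval −0.92 to −0.47, edgeR adjusted p = 0.00128), a level 1.62-fold lower. Dpp4 (CD26, ENSMUSG00000035000, 62330073 to 62412231, minus strand) encodes an enzyme that trims chemokines and incretins and is also found on T cells and proximal tubule. It had 39, 51 and 50 counts in lone and 5, 4 and 2 counts in cocultured libraries, that is 3.03, 4.03 and 4.23 CPM against 0.372, 0.314 and 0.152 CPM. The lowest lone library was far above the highest cocultured one, and the cocultured values lay close to the floor of 3 counts. Its log2 fold change was −3.70 (SE 0.354, 95% interval −4.40 to −3.01, edgeR adjusted p = 4.52e-05). The summed counts of 140 and 11 gave a ratio of 13.4 after scaling, with an exact 95% counting interval of 7.26 to 27.4.

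Within each library Dpp4 also moved against Fap. The log2(FPKM + 0.1) ratio of Dpp4 to Fap was −3.03, −2.54 and −2.58 in lone and −4.29, −4.05 and −4.34 in cocultured fibroblasts. These ranges did not overlap, and the difference of −1.51 reached the smallest two-sided exact permutation p that the design allows, 0.10. Its size depended on the pseudocount, since the same difference was −2.78 on counts + 1 and −0.06 on log2(FPKM + 1), where Dpp4 is near 0. A list of 8 further genes held peptidases that cut at or near proline and their relatives, among them Dpp7, which belongs to another peptidase family, and Dpp6 and Dpp10, whose products lack peptidase activity. Of the 8 genes 6 were tested, 3 were higher and 1 lower, with a median of 0.21. Prep, the cytosolic prolyl endopeptidase, was at 177 ± 6.70 and 221 ± 10.7 CPM (log2 0.32, edgeR adjusted p = 0.00343), Prepl changed by log2 0.37, and Dpp8 by 0.24. Apeh, which removes acetylated residues from peptides, changed by log2 −0.29 (edgeR adjusted p = 0.0169), and Dpp9 was at 0.17 (edgeR adjusted p = 0.0852).

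Dpt (dermatopontin, ENSMUSG00000026574, chromosome 1, 164796644 to 164824266, plus strand) encodes a small protein that binds decorin and collagen fibrils. It had 12, 10 and 10 counts in lone libraries and 0, 0 and 0 in cocultured ones, so a low signal in every lone library was not detected at this depth in any cocultured one. Against the floor of 3 counts per library, 0.236 CPM, its level was at least 3.63-fold lower. The filter on low counts kept it from the test, and without that filter, over 19278 genes, its edgeR adjusted p was 0.00106.

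Pi16 and Cd34 were not called in either direction. Pi16 (ENSMUSG00000024011, chromosome 17, 29318877 to 29329413, plus strand), a membrane-anchored member of the CRISP family, measured 3.49, 4.74 and 3.13 CPM in lone and 3.64, 3.30 and 2.81 CPM in cocultured libraries. The groups overlapped, with a log2 difference of −0.22 (SE 0.224, 95% interval −0.66 to 0.22, edgeR adjusted p = 0.480). Cd34 (ENSMUSG00000016494, chromosome 1, 194938819 to 194961279, plus strand), a sialomucin shared with endothelium and blood progenitors, had 10, 26 and 28 counts in lone and 40, 40 and 41 counts in cocultured libraries. In CPM these were 0.776, 2.05 and 2.37 against 2.97, 3.14 and 3.12. Every cocultured library was above every lone one, but lone replicate 1 lay far under the other lone libraries and the coefficient of variation was 48.7% in lone and 2.95% in cocultured fibroblasts. The log2 difference was 0.83 (SE 0.347, 95% interval 0.15 to 1.52, unadjusted p = 0.0398 and adjusted p = 0.0903 in edgeR), and 0.48 without lone replicate 1 (edgeR adjusted p = 0.181).

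The 4 markers of the adventitial population therefore had different values under the same treatment. In cocultured fibroblasts Dpp4 averaged 0.0398 FPKM and Dpt was at 0, whereas Pi16 and Cd34, also low, averaged 0.445 and 0.320 FPKM. A wider list of 22 genes of adventitial and universal fibroblasts was split as well, with 17 tested, 6 higher and 9 lower and a median of −0.27. Ly6a (Sca-1, a member of a family of similar genes, so that shared reads make its count uncertain) fell from 73.1 ± 4.55 to 0.685 ± 0.144 CPM (log2 −6.71, SE 0.141, edgeR adjusted p = 1.48e-08). Col15a1, a basement-membrane collagen, fell from 263 ± 10.3 to 9.65 ± 0.963 CPM (log2 −4.77, SE 0.090, edgeR adjusted p = 8.56e-09). Ccl11 (eotaxin, a chemokine for eosinophils) rose from 12.1 ± 2.46 to 302 ± 10.3 CPM (log2 4.65, SE 0.131, edgeR adjusted p = 3.73e-08). Of 5 relatives of Pi16 with a CRISP or related domain 4 were tested, of which Crispld2 (log2 0.38) and Glipr2 (log2 0.20) were higher and 0 were lower.

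**Figure D3:**
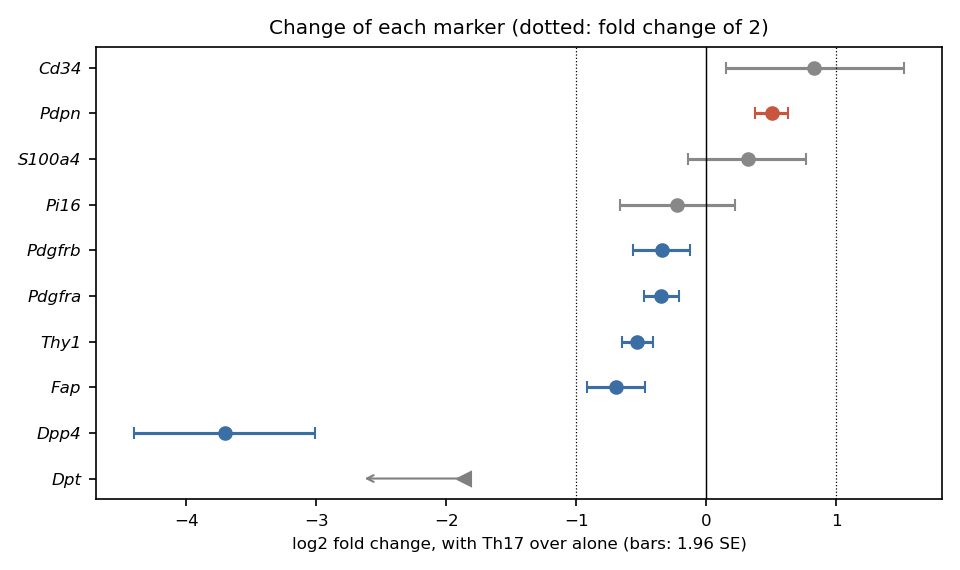
Log2 fold change (cocultured over lone) of the 9 tested markers, with approximate 95% intervals built from the SE. Dpt is at its bound (triangle), and dotted lines mark a fold change of 2. Dpp4 lies at −3.70, Dpt at or below its bound of −1.86 and the other 8 markers between −0.69 and 0.83, and the intervals of Pi16 and S100a4 include 0.

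S100a4 (fibroblast-specific protein 1, ENSMUSG00000001020, chromosome 3, 90603771 to 90606045, plus strand) encodes a cytoplasmic calcium-binding protein that leukocytes also make. It measured 4.81, 5.06 and 6.76 CPM in lone and 5.20, 6.52 and 8.98 CPM in cocultured libraries. The groups overlapped, and the log2 difference of 0.32 (SE 0.232, 95% interval −0.14 to 0.77, edgeR adjusted p = 0.319) was 0.08 without cocultured replicate 3, the highest library. Of 15 other genes of the S100 family 8 were tested, 2 were lower and 0 higher, with a median of −0.33. Of all genes tested 20.0% were lower and 17.1% higher. S100a10, the partner of annexin A2, fell from 105 ± 7.09 to 44.0 ± 8.37 CPM (log2 −1.25, SE 0.127, edgeR adjusted p = 6.38e-05), and S100a16 changed by log2 −0.80. S100a6 and S100a11, at log2 −0.16 and −0.11, were not called.

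Promoter sequences are shown for the 3 markers whose levels set the pattern apart: Dpp4, which alone was past the study's threshold, Dpt, which was at 0 counts in coculture, and Pdpn, which alone was higher. Each line holds the 250 bases before the annotated start, 5′ to 3′ on the gene's strand, from RefSeq (GRCm38.p6), at chr2:62412232-62412481 (minus strand) for Dpp4, chr1:164796413-164796662 (plus strand) for Dpt and chr4:143299565-143299814 (minus strand) for Pdpn. Capitals mark matches to 1 of 5 patterns searched on both strands.
Dpp4: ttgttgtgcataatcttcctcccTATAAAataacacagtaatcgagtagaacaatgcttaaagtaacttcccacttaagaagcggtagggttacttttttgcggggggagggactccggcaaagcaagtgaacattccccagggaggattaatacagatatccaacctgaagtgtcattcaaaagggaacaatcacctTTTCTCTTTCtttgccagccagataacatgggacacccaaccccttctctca
Dpt: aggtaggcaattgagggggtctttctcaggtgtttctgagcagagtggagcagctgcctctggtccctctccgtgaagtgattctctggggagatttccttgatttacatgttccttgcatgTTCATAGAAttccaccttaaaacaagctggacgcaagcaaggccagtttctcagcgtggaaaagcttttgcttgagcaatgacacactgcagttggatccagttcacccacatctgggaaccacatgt
Pdpn: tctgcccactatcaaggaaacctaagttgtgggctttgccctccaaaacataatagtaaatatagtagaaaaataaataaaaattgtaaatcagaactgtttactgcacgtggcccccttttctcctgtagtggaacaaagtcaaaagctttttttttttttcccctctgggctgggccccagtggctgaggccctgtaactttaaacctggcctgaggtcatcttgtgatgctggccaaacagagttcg

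The first of the 5 patterns was TATAAA, a core promoter element. The next were CCAAT, which nuclear factor Y binds, and GGGCGG, which Sp1 binds. The others were TTCNNNGAA, the core bound by STAT factors, and a pair of GAAA blocks 2 bases apart, found in interferon-response elements. They were searched in 300 bases, which add the first 50 after the start. RefSeq promoters were found for 7 of the 10 markers and not for Pdgfrb, Thy1 and Fap. In Dpp4 the capitals are TATAAA at −227 to −222 and the GAAA pair on the reverse strand at −52 to −43, counted back from the start. In Dpt they are TTCNNNGAA at −128 to −120, and TATAAA also lay at 13 to 18, past the printed window. Pdpn had no match in the printed bases, and GGGCGG lay at 2 to 7 and 45 to 50 after its start. TATAAA was in 3 of the 7 markers and in 13.6% of all 32851 promoters. Each other pattern was in 1 of the 7, against 37.4% of all for CCAAT, 35.7% for GGGCGG, 8.30% for TTCNNNGAA and 3.44% for the GAAA pair. A match describes these letters and is not a site of binding.

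Neighbouring genes on the chromosome gave no uniform direction. The nearest protein-coding genes on either side of the markers were 19 genes, of which 10 were tested, 2 were higher and 3 lower, with a median log2 fold change of −0.02. Between Dpp4 and Fap lies Gcg, the glucagon gene, with 0, 0 and 5 counts in lone and 0, 0 and 1 in cocultured libraries. On the other side of Fap, 21.7 kb away, Ifih1 (MDA5, a sensor of viral RNA) fell from 317 to 100 CPM (log2 −1.66, SE 0.060, edgeR adjusted p = 1.04e-07). Csf1r, 20.5 kb from Pdgfrb and a receptor of macrophages, changed by log2 −1.78, and Kit, beside Pdgfra, had 4, 4 and 3 counts against 0 in each. Atp1b1 beside Dpt was lower (log2 −0.50, edgeR adjusted p = 0.0123), and Plxna2 beside Cd34 (log2 0.71, edgeR adjusted p = 0.0114) and Pvrl1 beside Thy1 (log2 0.47, edgeR adjusted p = 0.00200) were higher.

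Genes of the fibroblast matrix and of mural cells were mostly lower. Of 15 core matrix genes, all tested, 13 were lower and 1 higher, with a median of −1.18. Col3a1 fell from 4364 ± 18.4 to 961 ± 112 CPM (log2 −2.18, SE 0.084, edgeR adjusted p = 1.37e-07). Dcn, the proteoglycan decorin, rose from 504 ± 3.05 to 1427 ± 50.4 CPM (2.83-fold, edgeR adjusted p = 8.74e-08). Mfap4, a microfibril protein, had 186, 172 and 140 counts against 0, 3 and 1, a ratio of 131 with a counting interval of 50.8 to 483, and its end overlaps Mapk7 on the opposite strand. Of 10 markers of pericytes and smooth muscle, which share Pdgfrb, 7 were tested and all 7 were lower, with a median of −1.52. Des fell from 1313 ± 42.9 to 312 ± 16.5 CPM (log2 −2.07, SE 0.061, edgeR adjusted p = 4.21e-08), Ndufa4l2 changed by −1.64 and Mcam by −1.52.

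**Figure D4:**
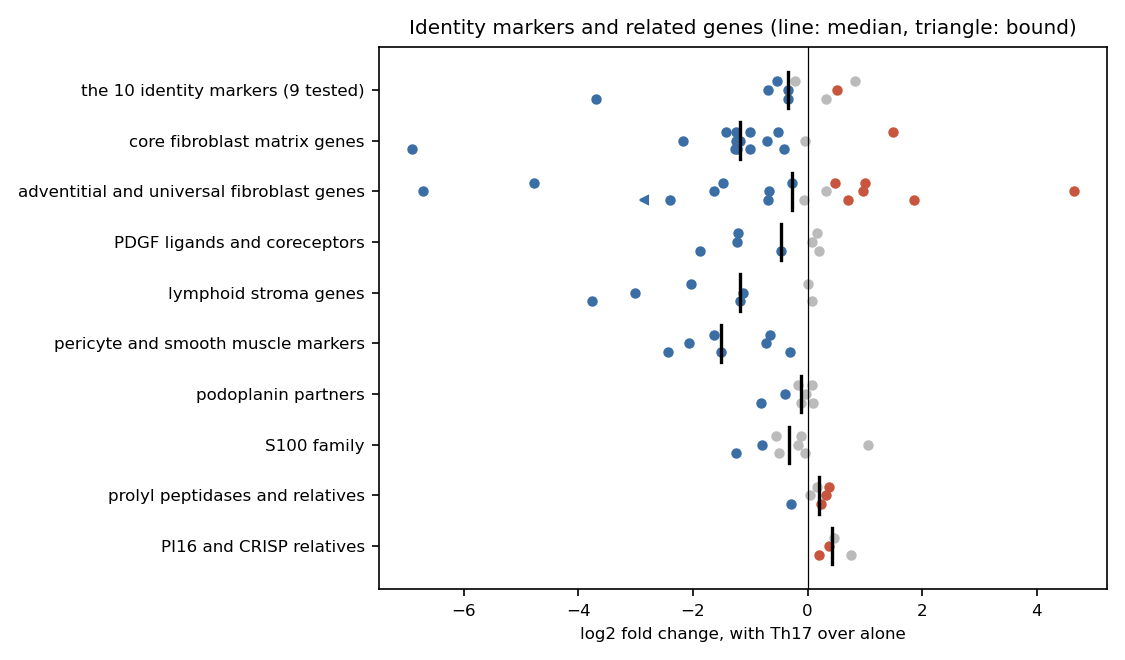
Log2 fold change (cocultured over lone) of each tested gene in 10 lists, the 10 markers included; each point is a gene, red or blue where it was called higher or lower, the line is the list's median, and a triangle marks Ly6c1 at its bound. The markers have a median of −0.34, core matrix genes and lymphoid stroma genes −1.18 each, and pericyte and smooth muscle markers −1.52.

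Markers of T cells, endothelium and tubules, which also express some of the 10 genes, summed to far less CPM than Thy1 or Pdpn. In lone libraries their sums lay above the mean CPM of Dpp4 (3.76), Cd34 (1.73) and S100a4 (5.54). CPM is not scaled to gene length. Of 16 T cell markers 13 had 3 counts or fewer everywhere, 7 of them (Cd3d, Cd8a, Cd2, Cd5, Il17a, Il17f and Ccr6) were at 0 in all libraries, and the summed level was 6.21 to 8.69 CPM in lone and 4.79 to 5.58 CPM in cocultured fibroblasts. Lck, at log2 −1.04, was the T cell marker called lower. Endothelial markers, of which 3 of 10 were tested, summed to 10.4 to 12.0 CPM and 5.58 to 6.21 CPM, with Tie1, Emcn and Cldn5 at 0 throughout. Kdr, the 1 called lower, had 65, 74 and 68 against 2, 1 and 2 counts. Pecam1 (log2 0.10) and Egfl7 (log2 0.17) were not called. Tek, too low to be tested, had 2, 3 and 3 against 8, 13 and 3 counts. Of 10 tubular markers Slc34a1 and Umod were at 0, and the sum was 6.59 to 8.69 CPM and 5.65 to 6.05 CPM. Lrp2, the megalin gene of proximal tubule, a cell that also expresses Dpp4, was the 1 of 3 tested tubular markers called lower, with 49, 38 and 27 counts against 8, 4 and 11 (log2 −2.36, SE 0.371, edgeR adjusted p = 0.00100). Aqp1, also of proximal tubule, was not called, with 41, 38 and 32 counts against 53, 58 and 56 (log2 0.52, edgeR adjusted p = 0.0531).

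Markers of macrophages, podocytes and mesothelium were lower with Th17 cells in sum. Of the 6 macrophage markers that could be tested, from a list of 13, 5 were lower, the sum being 58.8 to 61.8 CPM in lone and 20.0 to 21.1 CPM in cocultured libraries. Adgre1 had 71, 47 and 55 counts and Ptprc 14, 12 and 11 in lone libraries, against 0 in each cocultured one. Lyz2 fell from 27.6 ± 0.943 to 3.33 ± 0.392 CPM, whereas Cd14, at 11.2 CPM in both groups, was not called. Podocyte markers, of which 3 of 6 were tested, summed to means of 34.5 and 10.1 CPM, with Nphs1 at 0 and a lone range of 22.5 to 56.9 CPM. Mesothelial markers, of which Krt19 was the 1 of 5 tested (log2 −2.63), summed to 15.0 to 17.8 CPM and 1.90 to 3.06 CPM. The 10 fibroblast markers summed to 1165 to 1189 CPM and 1084 to 1132 CPM. The part of these other cells in the values of Dpp4, Dpt, Cd34, S100a4 and Pdpn was not tested.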

How the data were processed

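Libraries were prepared from total RNA and sequenced on an Illumina NovaSeq. According to the submitters' processing notes, reads were aligned to mm10 with HISAT2 2.0.4 and counted with StringTie 1.3.3b. The authors deposited raw fragment counts per gene and, beside them, FPKM values. Whether counting used strand is not given in the sources used here. Genes that overlap others on the opposite strand (Pdgfra, Cd34, Pi16 and Dpp4) therefore carry that uncertainty. S100a4 overlaps Gm42674, and Pdgfra also Mir7025, on the same strand, where counting by strand would not separate them. The overlapping genes Gm16897, Gm13561 and Gm42674, at Cd34, Dpp4 and S100a4, had 0 counts. Gm42802, opposite Pdgfra, had 15 counts in total, and no count was available for Mir7025 at Pdgfra or AC162182.1 at Pi16. Columns were matched to samples through the labels' column names.

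Differential expression used edgeR 4.0.16 under R 4.3.3 (filterByExpr with a minimum count of 10, TMM, glmQLFit and glmQLFTest, Benjamini-Hochberg adjustment over 13088 genes) on 3 lone and 3 cocultured libraries, with group as the only term. The biological coefficient of variation, from the common dispersion of 0.0136, was 11.6%. The SE of a log2 fold change was derived from the quasi-likelihood F. Its 95% interval was built from that SE on a normal distribution, which makes it too narrow for so few libraries. The fit was tested on simulated data. A fold change against a group at 0 counts throughout is given as a bound, and one against a group with 1 to 3 counts as a ratio of summed counts with its exact interval. Ratios used exact permutation tests in SciPy 1.17.1, and figures were drawn with matplotlib 3.10.9. No library was a copy of another. Alternatives were DESeq2 1.42.0, limma 3.58.1 on log2(FPKM + 1), other scalings, other filters, a replicate block and leaving out each library.

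The markers and gene lists were chosen with earlier results of these data known. Named genes were all 10 markers, up to 3 called genes per list with the largest change among those that averaged 50 counts or more where they were higher, family relatives, chromosomal neighbours and markers at 0. Genes with a profile like that of a marker past the study's threshold were sought only where it averaged 50 counts or more, and Dpp4, at 46.7, did not.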

Additional observations from a re-analysis of the deposited data

How the results depend on the processing

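Thy1, Pdpn, Fap and Pdgfra kept their direction and call in all 14 alternatives, and Dpp4 in the 13 that could test it. Pdgfrb lost its call with library size only (−0.28), with limma (−0.28) and without any lone library, and its fold change ranged from −0.43 to −0.21 when 1 library was left out. The cause was not tested. Markers past the study's threshold numbered 2 without a filter on low counts, since Dpt was then tested, 0 with at least 10 counts in every library, since Dpp4 was then not tested, 0 with limma, where Dpp4 was at −0.54 on log2(FPKM + 1), and 1 to 2 when 1 library was left out. The ratio of Dpp4 to Fap differed by −2.78 on counts + 1 and by −0.06 on log2(FPKM + 1), and the ratio of Pdgfra to Pdgfrb by −0.08 to 0.09 when 1 library was left out.

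The replicate numbers did not pair the libraries, since deviations of same-numbered libraries correlated at 0.016, −0.026 and −0.004. With the replicate block the values were −0.36 for Pdgfrb (edgeR adjusted p = 0.0180) and −3.69 for Dpp4 (edgeR adjusted p = 0.000515), and no marker's call changed. Depth limits Dpp4 and Dpt in cocultured fibroblasts, where 0 to 5 counts stood behind each value, and Cd34 and Pi16, which had 10 to 60 counts per library.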
